A study of Mus musculus with 10 samples.

Results

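The Dlg scaffold family of the mouse holds 5 genes, Dlg1 to Dlg5, and each had 1 row among the 55385 genes of the deposited count table. Dlg2 was chosen by its measured fall in the comparison described here, and the other 4 genes were taken because they belong to the same family. The values of Dlg2 in this comparison are therefore given as a description, with no test. After a filter on low counts, 4 of the 5 genes were among 15064 tested, and the one that did not pass was Dlg3, which was listed at 0 in every library.

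DLG proteins are membrane-associated guanylate kinases, called MAGUKs. They hold receptors, channels and adhesion proteins in place under the membrane through PDZ domains, and they carry an SH3 domain and a guanylate kinase domain that has lost its enzyme activity and binds other proteins instead. In epithelia DLG1 works with Scribble and the LGL proteins to keep the basolateral side distinct from the apical side, whereas DLG2, DLG3 and DLG4 are best known from the postsynaptic density of neurons. The founding member was found in the fruit fly, where its loss lets epithelial tissue overgrow.

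The knockdown group was 5 RNA samples of a mouse ovarian tumour cell line transduced with a lentiviral shRNA against Il6 and given the genotype label IL6 knockdown. The control group was 5 samples of the same line with a non-mammalian shRNA in the vector pLKO.1-puro. Both groups carry the Arid1a and Pik3ca mutations of the tumour from which the line came, and the line is spelled APV245 in the titles and APC245 in the design text. The labels give no treatment and 1 batch, and they describe culture in DMEM with serum, while the design text describes tumours under the skin. The sources used here do not give the host strain or age, whether each sample came from a separate animal or culture, or whether the transduced lines were pools or single clones. The p-values therefore measure only the spread between these samples, which may be technical.

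The libraries held 17905397 to 19934278 counts in the IL6 shRNA1 group and 18224751 to 22682346 in the control group. The libraries labelled IL6 shRNA1 did not have less Il6 mRNA, with 1.73 ± 0.406 counts scaled to a common library size (CPM) against 1.26 ± 0.639 in control libraries (SD, n = 5 each; log2 fold change 0.44 ± 0.36 SE; edgeR adjusted p = 0.44), so every direction below is that of the labels. The first principal component of all tested genes held 54.3% of the variance, and the libraries farthest out on it were IL6 shRNA1 library 5 and control libraries 2 and 5. Markers of other cells were counted as well. Of 21 leukocyte markers tested, 11 were higher in the IL6 shRNA1 libraries and 0 lower; their summed level ran from 3130 to 6290 CPM in IL6 shRNA1 libraries and from 1150 to 3240 CPM in control libraries, and none of the 25 listed was at 0. The most abundant was Cd74, the invariant chain of MHC class II, at 2240 ± 769 against 858 ± 433 CPM. Of 10 fibroblast and pericyte markers, edgeR called 2 lower and 0 higher, beside 6.16% and 5.62% of all genes tested. The 2 were the proteoglycan genes Dcn (511 ± 94.3 against 783 ± 111 CPM, log2 fold change -0.62, adjusted p = 0.017) and Lum (441 ± 126 against 860 ± 122 CPM, -0.97, 0.0096). Their groups did not overlap, as in 10.9% of all genes tested. The most abundant, Col1a1 (log2 fold change -0.11) and Col3a1 (-0.06), were not called. The median over the 10 was -0.13, with 7 negative values. The summed level of that list, most of it collagen mRNA, ran from 35100 to 67000 CPM in IL6 shRNA1 libraries and from 34200 to 73600 CPM in control libraries. All 10 endothelial markers had a positive fold change (median log2 0.51) and adjusted p-values from 0.063 to 0.89, with sums from 276 to 549 CPM in IL6 shRNA1 libraries and from 215 to 319 CPM in control libraries. The part of these cell types in the differences below was not tested, except for a leukocyte covariate. Summed skeletal muscle markers ran from 78.9 to 10200 CPM in IL6 shRNA1 libraries and from 35.7 to 1250 CPM in control libraries, with 0 of 10 called by edgeR. Their median log2 fold change was 2.77, with 0 negative values and edgeR adjusted p-values from 0.12 to 0.37. The part of muscle in the differences below was not tested either. Of the ovarian tumour markers, 9 of 10 were tested, with a median log2 fold change of 0.52, 2 negative values and adjusted p-values from 0.062 to 0.88. The 2 most abundant were Wt1, a transcription factor of mesothelium and serous tumours, at 83.0 ± 13.1 against 90.5 ± 22.8 CPM, and the keratin gene Krt8 at 71.0 ± 11.5 against 53.0 ± 24.3 CPM. In such bulk RNA fewer cells of a type and less RNA per cell cannot be told apart.

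Dlg2 (ENSMUSG00000052572.19, chromosome 7, 90476672 to 92449247, plus strand, GRCm38) encodes PSD-93, a scaffold of the postsynaptic density that binds potassium channels and NMDA receptors. It had 3.527, 1.828, 1.365, 1.363 and 2.17 CPM in IL6 shRNA1 libraries 1 to 5, against 10.44, 13.1, 8.247, 8.069 and 18.15 CPM in control libraries 1 to 5. The groups did not overlap: the highest IL6 shRNA1 value, in library 1, was below the lowest control value, in library 4. Of all 15064 genes tested, 10.9% had groups that did not overlap, and nothing is read from Dlg2 being one of them, because this contrast chose it. The mean of the IL6 shRNA1 libraries was 2.05 ± 0.893 CPM, that of the controls 11.6 ± 4.19 CPM (SD, n = 5 each), so the IL6 shRNA1 mean stood at 17.7% of the control mean. The fitted log2 fold change was -2.50 ± 0.32 (SE), and 14 tested genes had a more negative one. These values rest on 25 to 66 counts in IL6 shRNA1 libraries and 156 to 306 counts in control libraries, out of 1366 in all.

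Refits of the same libraries are given for Dlg2 as values only, since these libraries chose it. Leaving out single libraries gave log2 fold changes from -2.76 to -2.27. Without the 3 libraries farthest out on the first component it was -2.14 ± 0.33 (SE). With a covariate for the leukocyte score (the mean level of the leukocyte markers per library) it was -1.92 ± 0.36; the score was itself higher in the IL6 shRNA1 libraries, so it shares variance with the group. Within each group the Dlg2 level also differed between libraries, with a coefficient of variation of 43.5% in the IL6 shRNA1 group and 36.1% in the control group. These were the widest relative spreads of the 4 tested members in both groups, as the plot of CPM values in every library shows.

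**Figure D1:**
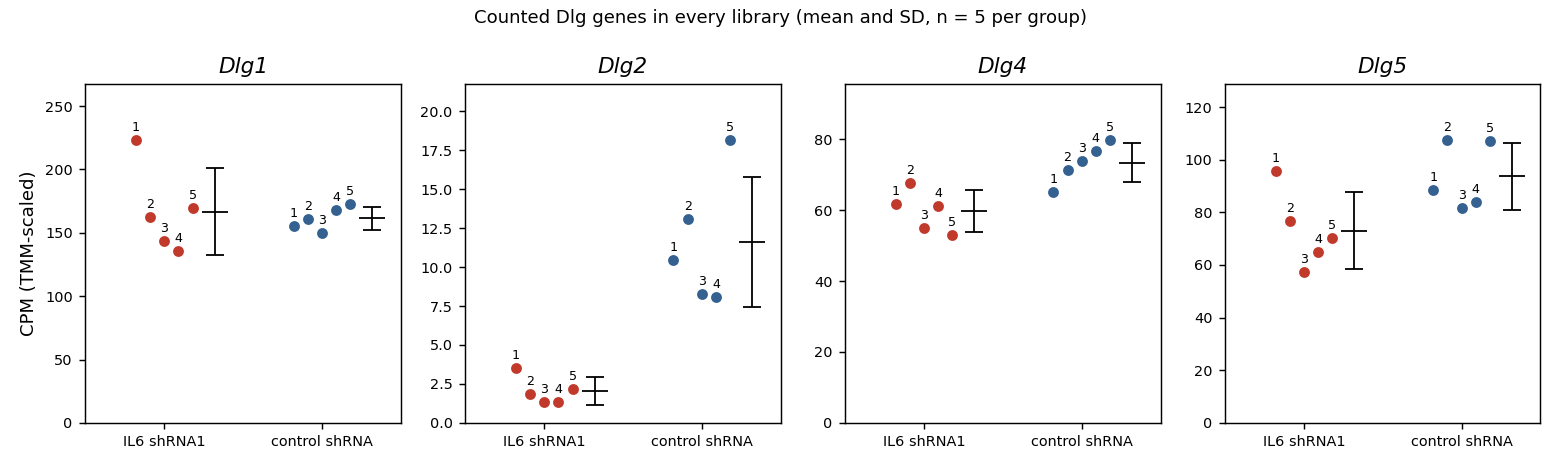
TMM-scaled CPM of Dlg1, Dlg2, Dlg4 and Dlg5 in every library, with 1 numbered point per library (the number in the sample title), IL6 shRNA1 in red and control shRNA in blue; the black bars beside the points give the mean and SD (n = 5 each). The groups are apart for Dlg2 (at most 3.53 against at least 8.07 CPM) and overlap for Dlg1, Dlg4 and Dlg5, and IL6 shRNA1 library 1 is the highest of its group for Dlg1, Dlg2 and Dlg5.

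Nerve cells are the best known site of Dlg2, so their markers were counted beside it. Of 14 neuron markers, 7 passed the filter, 1 was higher (Uchl1, a neuronal deubiquitinase gene; 38.0 ± 12.4 against 13.8 ± 5.26 CPM) and 1 was lower (Syt1, the synaptic vesicle calcium sensor synaptotagmin 1; 0.432 ± 0.307 against 2.73 ± 1.67 CPM). Over all genes tested, 5.62% were called higher and 6.16% lower. The summed level of the 14 neuron markers ran from 180 to 254 CPM in IL6 shRNA1 libraries and from 101 to 180 CPM in control libraries. The median log2 fold change of the 7 was 0.75. The list divided by level: Map2, a microtubule protein gene, was the most abundant at 136 ± 28.9 against 80.1 ± 29.7 CPM, and Tubb3, Camk2a, Gap43 and Stmn2 had 4366, 2308, 1179 and 431 counts in all 10 libraries together, none of these 5 called. Of the remaining 7, which did not pass the filter, Snap25 had 0 counts, Elavl4 2, Elavl3 6, Nefl 7, Nefm 12, Rbfox3 29 and Syp 76. Whether neuronal RNA has a part in the Dlg2 values was not tested. Of 10 Schwann cell markers 5 were tested, with 1 higher and 0 lower, beside the same shares over all genes. The lineage factor gene Sox10 had 31 counts in all libraries together. The summed Schwann level ran from 89.1 to 94.9 CPM in IL6 shRNA1 libraries and from 92.1 to 114 CPM in control libraries.

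The deposited table gives 1 value per gene and does not tell the Dlg2 transcripts apart, which start from several places. RefSeq (build GRCm38.p6) lists 3 Dlg2 promoter windows of 300 bases, each from 250 bases before a transcript start to 50 after it. They are shown because Dlg2 differed most within the family, together with the 1 window of Dlg5 for contrast; capitals mark CpG dinucleotides, and all are printed 5′ to 3′ on the strand of the gene, plus for Dlg2 and minus for Dlg5.
Dlg2 window 1 (chr7:91090536-91090835): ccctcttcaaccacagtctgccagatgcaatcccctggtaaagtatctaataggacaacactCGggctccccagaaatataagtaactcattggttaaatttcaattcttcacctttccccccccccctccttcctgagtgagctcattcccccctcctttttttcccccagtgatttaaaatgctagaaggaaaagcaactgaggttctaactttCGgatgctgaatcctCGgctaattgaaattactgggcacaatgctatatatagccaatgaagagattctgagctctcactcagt
Dlg2 window 2 (chr7:92062144-92062443): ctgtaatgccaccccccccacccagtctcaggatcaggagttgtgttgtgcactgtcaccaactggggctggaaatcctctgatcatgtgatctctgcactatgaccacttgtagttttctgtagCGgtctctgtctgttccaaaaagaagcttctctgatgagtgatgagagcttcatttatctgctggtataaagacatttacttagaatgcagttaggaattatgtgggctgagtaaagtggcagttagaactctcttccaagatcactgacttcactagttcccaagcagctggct
Dlg2 window 3 (chr7:92234720-92235019): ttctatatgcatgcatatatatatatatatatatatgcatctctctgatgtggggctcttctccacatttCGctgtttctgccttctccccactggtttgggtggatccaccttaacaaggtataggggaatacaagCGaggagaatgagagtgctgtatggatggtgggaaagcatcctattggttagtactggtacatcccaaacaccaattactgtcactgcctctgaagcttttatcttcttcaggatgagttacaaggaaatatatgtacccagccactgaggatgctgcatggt
Dlg5 window (chr14:24245871-24246170): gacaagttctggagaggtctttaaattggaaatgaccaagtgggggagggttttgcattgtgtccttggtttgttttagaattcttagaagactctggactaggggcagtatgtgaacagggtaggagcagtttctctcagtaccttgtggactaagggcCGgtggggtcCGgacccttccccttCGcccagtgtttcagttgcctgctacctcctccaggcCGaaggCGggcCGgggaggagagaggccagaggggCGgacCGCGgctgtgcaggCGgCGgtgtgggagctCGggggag

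The Dlg2 windows held 3, 1 and 2 CpG dinucleotides, against 12 in the Dlg5 window and a median of 7 over all 32851 windows in the RefSeq table. None of these Dlg2 windows covers the start of the gene model at 90476672, since the first begins at 91090536. The sequence at that start was therefore not examined. Their GC content was 44.7%, 46.0% and 43.0%, below the median of 52.7% over all windows, and that of the Dlg5 window was 58.3%. The other members had at least 1 window richer in CpG, with up to 27 in a Dlg1 window, 16 in a Dlg4 window and 28 in a Dlg3 window. The spaced palindrome TTCNNNGAA, the form bound by STAT factors downstream of IL-6, reads the same on both strands and was searched in all 13 windows of the 5 genes. It occurred in 1 of them, the Dlg5 window, as TTCTTAGAA, and in 8.30% of all windows. The other 12 windows do not hold these letters, which says nothing of STAT binding elsewhere, and no binding or methylation was measured in these samples.

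None of the 6 nearest tested genes around Dlg2 on chromosome 7 was called, beside 11.8% of all genes tested. The 3 nearest tested genes before its start were Crebzf, a transcriptional regulator gene (61.1 ± 4.08 against 63.0 ± 8.68 CPM), and the mitochondrial membrane protein genes Tmem126a (29.4 ± 6.21 against 27.7 ± 1.70 CPM) and Tmem126b (12.4 ± 1.40 against 13.8 ± 0.998 CPM). The 3 after it were Ccdc90b (17.4 ± 1.27 against 16.6 ± 1.51 CPM), Ankrd42 (2.10 ± 0.312 against 2.77 ± 0.403 CPM) and the predicted gene Gm26944 (0.871 ± 0.399 against 0.549 ± 0.114 CPM). Adjusted p-values of these 6 genes by edgeR ran from 0.15 for Ankrd42 to 0.79 for Crebzf. Of 31 tested genes that start within 5 Mb of Dlg2, 2 were called, both higher in the IL6 shRNA1 libraries. Over all genes tested, 5.62% were called higher, so nothing is read from this count. The 2 were the serine protease gene Prss23 (43.2 ± 11.4 against 20.02 ± 4.08 CPM) and Picalm, a clathrin adaptor gene (427 ± 8.43 against 334 ± 51.8 CPM). The median log2 fold change of the 31 genes was -0.01, the same as over all genes tested. A further 30 annotated genes overlap Dlg2, with 8 counts in all 10 libraries together, so reads assigned to them were few beside the 1366 of Dlg2.

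**Figure D2:**
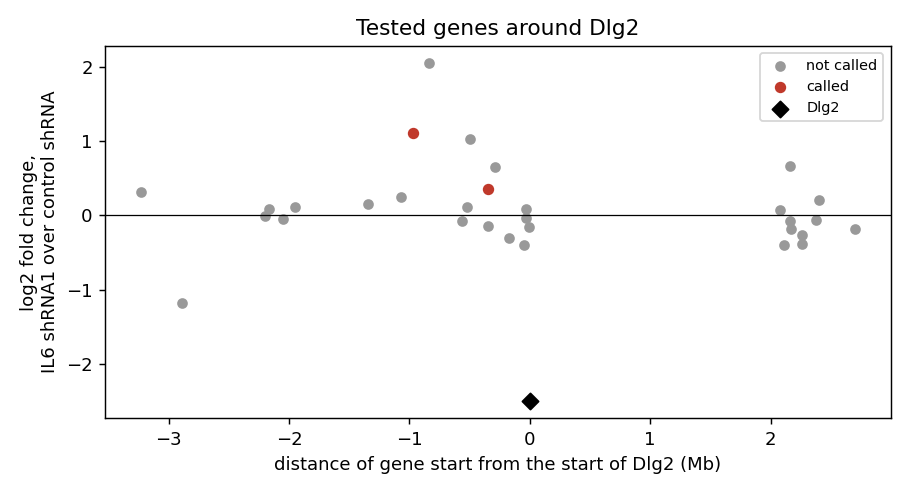
Log2 fold change (IL6 shRNA1 over control shRNA) of the tested genes that start within 5 Mb of Dlg2, against the distance of their start from that of Dlg2 in Mb; the black diamond is Dlg2 at -2.50, red points are called at an adjusted p under 0.05 and grey points are not. The 31 neighbours lie between -1.18 and 2.05, and the 2 called ones are positive.

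Dlg4 (ENSMUSG00000020886.17, chromosome 11, 70016942 to 70047522) encodes PSD-95, the main scaffold of excitatory synapses. It had 61.89, 67.67, 55.04, 61.24 and 52.93 CPM in IL6 shRNA1 libraries 1 to 5, against 65.22, 71.44, 73.88, 76.71 and 79.78 CPM in control libraries 1 to 5. The groups overlapped by 1 pair, since IL6 shRNA1 library 2 exceeded control library 1. The means were 59.8 ± 5.88 and 73.4 ± 5.54 CPM in the IL6 shRNA1 and control libraries (SD, n = 5 each). Dlg4 fell in the IL6 shRNA1 libraries by edgeR's quasi-likelihood test, with a log2 fold change of -0.30 ± 0.08 (SE; adjusted p = 0.04), a call that 6.16% of all genes tested had in that direction. The call was a narrow one. It was lost without IL6 shRNA1 library 3, 4 or 5 (adjusted p = 0.084, 0.067 and 0.088) and without control library 2, 3, 4 or 5 (0.075, 0.069, 0.072 and 0.096), and it was lost with the leukocyte covariate (0.62) and without the 3 farthest libraries (0.28). The fold change lay between -0.34 and -0.20 in all these fits, and the adjusted p ran from 0.017 to 0.62 over 22 alternatives, 9 of which called the gene.

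Dlg5 (ENSMUSG00000021782.14, chromosome 14, 24133953 to 24245920, minus strand) encodes the largest DLG protein, which sits at adherens junctions and takes part in the delivery of cadherin to the cell surface. It had 95.72, 76.76, 57.33, 64.89 and 70.13 CPM in IL6 shRNA1 libraries 1 to 5, against 88.43, 107.4, 81.52, 83.74 and 107.1 CPM in control libraries 1 to 5. IL6 shRNA1 libraries 2 to 5 were below every control library, and library 1 was above 3 of them. The means were 73.0 ± 14.6 and 93.6 ± 12.7 CPM in the IL6 shRNA1 and control libraries (SD, n = 5 each), with a log2 fold change of -0.36 ± 0.14 (SE; 95% interval from -0.66 to -0.06). Its adjusted p by edgeR was 0.10, which missed the threshold. Without IL6 shRNA1 library 1 the log2 fold change was -0.46 ± 0.12 (SE) and the adjusted p 0.025. That omission also raised the number of called genes over the whole fit from 1775 to 2774. The fold change was -0.04 ± 0.15 with the leukocyte covariate (adjusted p = 0.97) and -0.20 ± 0.16 without the 3 farthest libraries (0.60). An annotated antisense gene overlaps Dlg5 and was listed at 0, and the 3 overlapping genes together had 8 counts.

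Dlg1 (ENSMUSG00000022770.17, chromosome 16, 31663443 to 31875129) encodes SAP97, the family member found in most epithelia. It had 223.1, 162.2, 143.3, 135.5 and 169.4 CPM in IL6 shRNA1 libraries 1 to 5, against 155.6, 160.7, 149.9, 167.6 and 173.0 CPM in control libraries 1 to 5. The IL6 shRNA1 libraries spread to both sides of the control range, with a coefficient of variation of 20.6% against 5.70%. The means were 167 ± 34.4 and 161 ± 9.20 CPM in the IL6 shRNA1 and control libraries (SD, n = 5 each), and the log2 fold change of 0.05 ± 0.12 (SE; 95% interval from -0.22 to 0.31) had an adjusted p of 0.83 by edgeR. Its sign rested on IL6 shRNA1 library 1, without which it was -0.06 ± 0.08. IL6 shRNA1 library 1 was thus the highest of its group for Dlg1, Dlg2 and Dlg5. It also had the lowest leukocyte score of its group (-0.069, against 0.514 to 0.876 in the other 4) and lay at -21.4 on the first component, where the other 4 lay between 32 and 65.2. The part of this library's position in the values of the 3 genes was not tested beyond leaving it out.

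Of the 3 tested members that were not picked by their values, 1 was called (Dlg4, lower), beside 11.8% of all genes tested that were called in either direction. Counts in CPM cannot be set against each other between genes of different length, so the levels of the family were read from the deposited FPKM values, which divide by the length of the gene model. On that scale Dlg1 was highest, at 15.45 ± 2.58 FPKM in IL6 shRNA1 libraries and 14.97 ± 0.579 FPKM in control libraries. Dlg5 followed with 8.56 ± 1.44 against 10.9 ± 0.878 FPKM, then Dlg4 with 4.52 ± 0.514 against 5.52 ± 0.395 FPKM, and Dlg2 last of the counted ones with 0.113 ± 0.0446 against 0.638 ± 0.193 FPKM (SD, n = 5 each). This order held in every library, and neighbours in it differed by more than their spread in both groups.

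Within a library, the FPKM of Dlg1 was 1.65 to 1.98 times that of Dlg5 in IL6 shRNA1 libraries and 1.18 to 1.58 times in control libraries, ranges that did not overlap. This ratio was not tested, and how many gene pairs are so separated was not computed. Neither Dlg1 nor Dlg5 was called. Dlg5 over Dlg4 was 1.63 to 2.41 in IL6 shRNA1 libraries and 1.70 to 2.35 in control libraries, and Dlg4 over Dlg2 was 23.7 to 60.6 against 5.93 to 12.8. The summed FPKM of the family ran from 24.9 to 35.1 in IL6 shRNA1 libraries and from 31.5 to 33.1 in control libraries. Dlg1 held 53.8 ± 2.66% of that sum in IL6 shRNA1 libraries and 46.7 ± 1.98% in control libraries, Dlg5 29.8 ± 1.28% against 34.1 ± 2.48%, Dlg4 15.96 ± 2.45% against 17.2 ± 1.27%, and Dlg2 0.387 ± 0.0964% against 1.98 ± 0.563% (SD, n = 5 each). Dlg2 is thus a minor part of the counted family transcripts in both groups. The shares are tied to each other by their sum, and Dlg3 enters them at 0. The deposited FPKM values used gene model lengths of 10736 bases for Dlg1, 17870 for Dlg2, 13251 for Dlg4 and 8491 for Dlg5, so the level of a gene whose cells use short transcripts is understated.

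**Figure D3:**
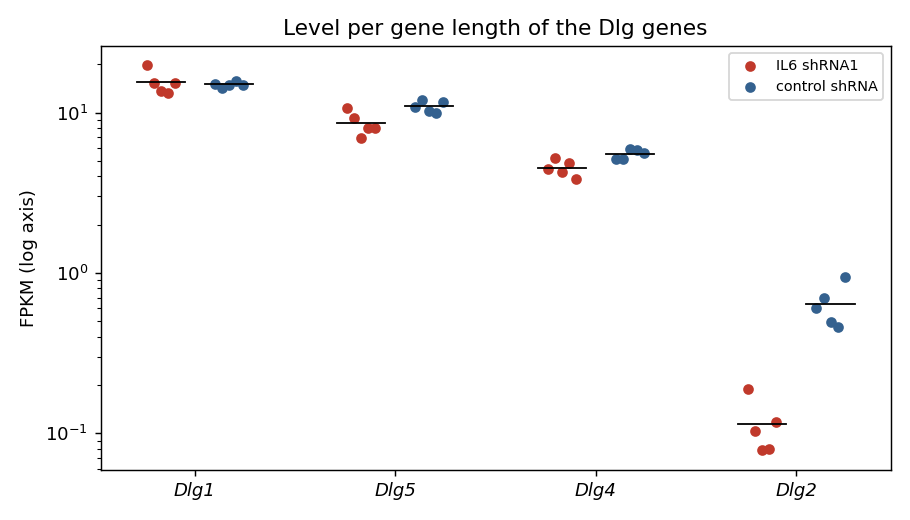
Deposited FPKM of the 4 counted Dlg genes on a log axis, 1 point per library, IL6 shRNA1 (red) left of control shRNA (blue) for each gene, with the group mean as a black line (n = 5 each). The genes keep the order Dlg1, Dlg5, Dlg4, Dlg2 in both groups, and Dlg2 lies at 0.113 against 0.638 FPKM on average.

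Dlg3 (ENSMUSG00000000881.12, chromosome X, 100767722 to 100818410) encodes SAP102, a scaffold of young synapses that is also known from epithelia. It was listed at 0 counts in all 5 IL6 shRNA1 and all 5 control libraries, and so were the genes around it. It lies in a run of 85 protein-coding genes, from 96713441 to 106603679 on chromosome X, of which 75 had 0 counts in every library and the highest had 10 counts in all 10 libraries together. The run holds genes that dividing cells are known to need: the ribosomal protein gene Rps4x, the glycolytic enzyme gene Pgk1, the RNA-binding protein gene Nono, the sugar transferase gene Ogt, the Mediator subunit gene Med12 and the mitotic kinesin gene Kif4 were all at 0. Within 25 Mb to the left of Dlg3, 7 of 90 protein-coding genes had more than 20 counts in total, and within 25 Mb to the right 3 of 109. Hprt, farther to the left on the same chromosome (start 52988137), had 1258 to 1993 counts per library. Over all of chromosome X, 61.5% of 933 protein-coding genes were at 0, against 17.1% on the autosomes. The 0 of Dlg3 was therefore not read as an absence of its mRNA, no fold change was given, and why counts are missing from this stretch was not tested. No annotated gene overlaps Dlg3 in the table.

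**Figure D4:**
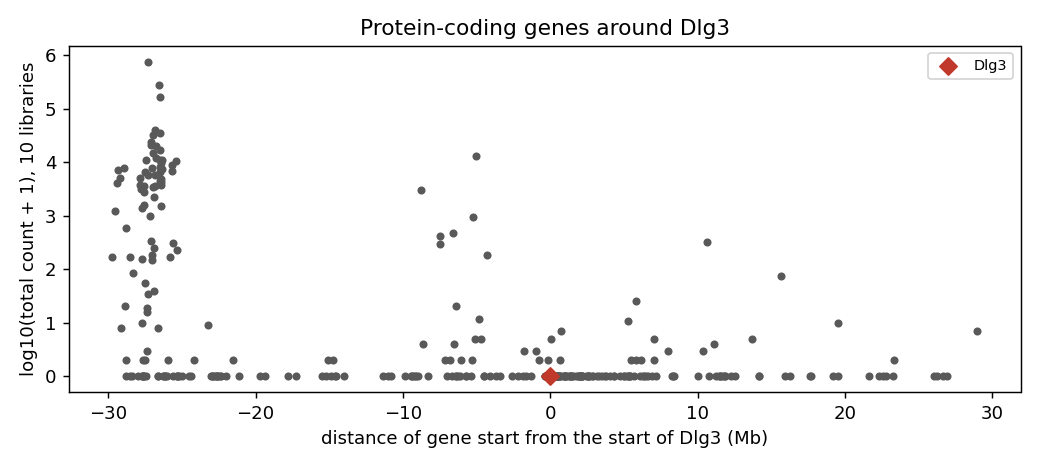
Total count over all 10 libraries, as log10(count + 1), of each protein-coding gene on chromosome X that starts within 30 Mb of Dlg3, against the distance of its start from that of Dlg3 in Mb; each grey point is 1 gene and the red diamond is Dlg3, at 0. Within 25 Mb, 7 genes to the left of Dlg3 and 3 to the right had more than 20 counts, and a cluster of genes farther to the left reached far higher totals.

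DLG proteins act with partners, and 109 genes of 5 groups of them were listed, of which 108 were in the table and 83 passed the filter. By edgeR 9 of the 83 were lower in the IL6 shRNA1 libraries, 0 were higher and 74 were not called. That is 10.8% called, beside 11.8% of all genes tested, and by direction 10.8% lower beside 6.16% and 0% higher beside 5.62%. The total share is near the background, and the median log2 fold change of the 83 genes was 0.00, beside -0.01 over all genes. At an unadjusted p under 0.05 there were 14 higher and 16 lower. DESeq2 called 9 higher and 11 lower, among them all of the 9, and limma voom called 1 higher and 10 lower. Over all genes edgeR called 1775, DESeq2 3005 and limma voom 1866. The partner count was 2 without the 3 farthest libraries (Lin7a and Magi1), where 212 genes were called in all. It was 0 with the leukocyte covariate (6 higher and 7 lower at an unadjusted p under 0.05), where 45 were called in all. Without IL6 shRNA1 library 1 it was 15, of 2774 called in all. It was 5 without IL6 shRNA1 library 3, IL6 shRNA1 library 5 or control library 5, of 1024, 989 and 864 called in all. The partner counts thus moved with the counts over all genes.

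In the Scribble module, 1 of 3 genes was called. Llgl1, a homolog of the fly tumour suppressor lethal giant larvae, had 81.1, 74.5, 65.0, 67.3 and 71.2 CPM in IL6 shRNA1 libraries 1 to 5, against 92.7, 90.1, 89.9, 87.0 and 102 CPM in control libraries 1 to 5. The groups did not overlap, as in 10.9% of all genes tested. Llgl1 fell with a log2 fold change of -0.36 ± 0.07 (SE, edgeR adjusted p = 0.013). Scrib, the scaffold that gives the module its name, was at 72.8 ± 6.36 against 80.3 ± 8.76 CPM (adjusted p = 0.30), and Llgl2, the paralog of Llgl1, at 8.23 ± 0.674 against 7.99 ± 1.22 CPM (0.86). Of 12 tested genes of the Par and Crumbs modules, which define the apical side, edgeR called 0, with 2 higher and 2 lower at an unadjusted p under 0.05, and DESeq2 called 2 higher (Cdc42 and Prkcz).

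Among 17 other MAGUK genes tested, 1 was called. Magi1, a scaffold of tight junctions, had 16.6, 16.3, 14.9, 17.1 and 17.7 CPM in IL6 shRNA1 libraries 1 to 5, against 22.4, 26.0, 23.2, 21.7 and 30.8 CPM in control libraries 1 to 5. Every IL6 shRNA1 library was below every control library, and 10.9% of all genes tested had groups that did not overlap. Magi1 fell with a log2 fold change of -0.59 ± 0.10 (SE, edgeR adjusted p = 0.0076). Cask, an X-linked MAGUK in the counted part of that chromosome, was at 64.0 ± 9.69 against 72.8 ± 5.36 CPM (adjusted p = 0.24).

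Cytoplasmic partners were called for 4 of 27 genes, all lower, and 3 of them are described here. Lin7a, a small PDZ protein that joins MAGUKs through their L27 domains, had 2.24, 1.48, 1.47, 1.70 and 1.38 CPM in IL6 shRNA1 libraries 1 to 5, against 5.60, 6.96, 4.30, 4.50 and 8.72 CPM in control libraries 1 to 5. Its groups were apart, as in 10.9% of all genes tested. Lin7a fell with a log2 fold change of -1.86 ± 0.24 (SE, edgeR adjusted p = 0.002). The value was -1.47 ± 0.23 without the 3 farthest libraries (adjusted p = 0.026) and -1.36 ± 0.28 with the leukocyte covariate (0.076). Its paralog Lin7c was at 75.0 ± 4.73 against 70.5 ± 3.87 CPM (adjusted p = 0.37). The neuronal nitric oxide synthase gene Nos1, whose product binds PSD-95 and PSD-93, fell to 18.9 ± 2.86 CPM in IL6 shRNA1 libraries, against 25.9 ± 2.77 CPM in control libraries (adjusted p = 0.03), and the spindle protein gene Numa1 to 139 ± 18.2 against 179 ± 17.1 CPM (0.041). Dlgap4, of the family that binds the guanylate kinase domain of DLG proteins, was at 90.5 ± 6.37 against 90.4 ± 8.79 CPM (0.99).

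Of 24 tested membrane proteins that bind DLG proteins or belong to their complexes, 3 were called by edgeR, all lower, while the median log2 fold change of the 24 was 0.24. At an unadjusted p under 0.05 there were 6 higher and 4 lower, and DESeq2 called 4 higher and 4 lower. Grik2, a kainate-type glutamate receptor subunit, had 3.74, 2.32, 1.26, 3.50 and 1.85 CPM in IL6 shRNA1 libraries 1 to 5, against 10.7, 9.69, 6.49, 9.78 and 10.97 CPM in control libraries 1 to 5. The groups were apart, as in 10.9% of all genes tested. Grik2 fell with a log2 fold change of -1.90 ± 0.28 (SE, edgeR adjusted p = 0.0034). The value was -1.73 ± 0.35 without the 3 farthest libraries (adjusted p = 0.053) and -1.58 ± 0.35 with the leukocyte covariate (0.089), both of which missed the threshold. Nlgn2, an adhesion protein of inhibitory synapses, fell to 85.9 ± 13.9 CPM in IL6 shRNA1 libraries, against 125 ± 20.8 CPM in control libraries (0.026). Lrrtm2, a postsynaptic adhesion protein, fell to 5.86 ± 2.12 against 11.5 ± 3.10 CPM (0.031). The values of Nlgn2 and Lrrtm2 overlapped between the groups. Of the 22 alternatives, 9 did not call Nos1, 10 Numa1, 8 Nlgn2 and 10 Lrrtm2. Nlgn3, which encodes another DLG ligand, lies in the run around Dlg3 and was listed at 0. Whether the leukocyte markers that were higher in the IL6 shRNA1 libraries have a part in these differences was not tested beyond the covariate fit. In that fit none of the 9 calls was kept, and the calls over all genes tested went from 1775 to 45. The score shares variance with the group, so the loss of the 9 is not particular to the partner genes.

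**Figure D5:**
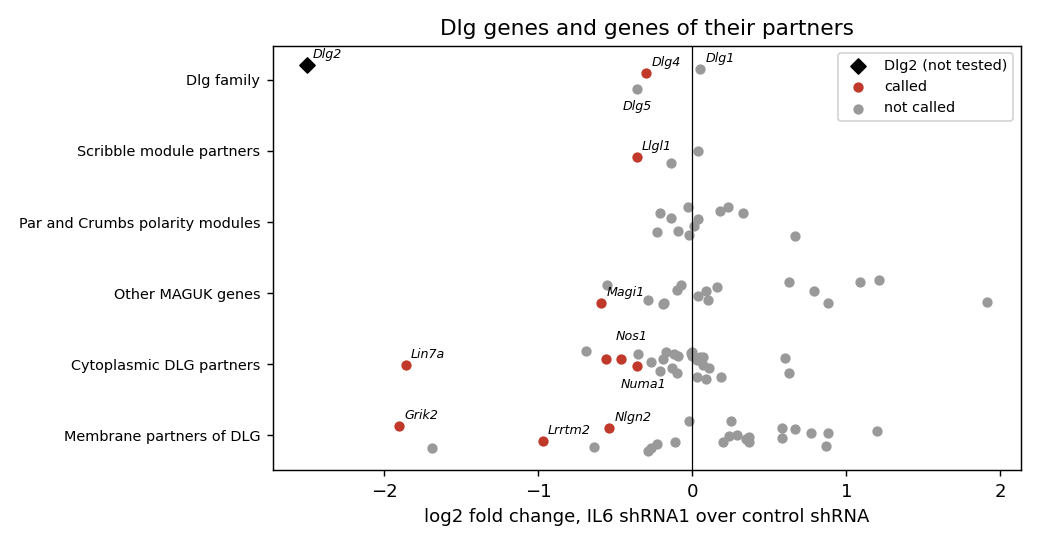
Log2 fold change (IL6 shRNA1 over control shRNA) of the tested Dlg genes and of the tested genes of 5 partner groups, 1 point per gene with groups in rows and vertical scatter for legibility only; red points are called at an adjusted p under 0.05 by edgeR, grey points are not, the black diamond is Dlg2, shown with no test, and the Dlg genes and 8 of the called partner genes are named. The 9 called partner genes are all left of 0, from Grik2 at -1.90 to Numa1 and Llgl1 at -0.36.

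The genes most like Dlg2 over the 10 libraries were found by the root mean square difference of log2 CPM, each gene centred on its own mean. Over 12815 genes compared the median of this difference was 1.32, and the smallest belonged to Gucy1a1, a subunit of the nitric oxide receptor guanylate cyclase (0.320), Unc5c, a netrin receptor gene (0.348), Phyhipl (0.397), the matrix protein gene Spon2 (0.399) and the Wnt ligand gene Wnt16 (0.426). All 5 were lower in the IL6 shRNA1 libraries, as the measure takes in the difference between the groups that chose Dlg2, and a like order of libraries within the groups is part of the measure too. Gucy1a1 had 21.5, 9.09, 4.70, 4.67 and 7.94 CPM in IL6 shRNA1 libraries 1 to 5, against 32.8, 50.9, 26.7, 21.8 and 58.4 CPM in control libraries 1 to 5. IL6 shRNA1 library 1 was the highest of its group and control libraries 2 and 5 the highest of theirs, the same libraries as for Dlg2. Unc5c, at 15.7, 4.99, 2.57, 3.70 and 4.66 CPM against 25.4, 43.5, 18.5, 23.2 and 59.7 CPM in the same order, had the same highest libraries, which its choice by likeness favoured. In Spon2 this differed, with library 5 the highest IL6 shRNA1 value, at 3.23 CPM, and library 1 at 2.57 CPM.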

How the data were processed

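RNA was measured in 10 libraries, made from total RNA with the NEBNext Ultra II RNA kit per the labels' protocols. The submitters' processing notes name STAR 2.7.0f, Subread 1.6.4 (featureCounts), SAMtools 1.11, Trim Galore 0.6.6, FastQC 0.11.9 and R 4.0.4 among the tools, and mm10 and GRCm38 as builds. The sources used here state no strand setting, annotation release or treatment of reads with several matches. Raw counts per gene are in the count table that the authors deposited, and the deposited FPKM table from the authors equals those counts per gene length and column total (largest relative deviation 9.4e-07).

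Counts were tested with edgeR 4.0.16 in R 4.3.3: genes passing filterByExpr (minimum count 10), TMM factors, a quasi-likelihood fit with robust estimation on the group, and Benjamini-Hochberg adjustment over all 15064 genes, called at 0.05. In simulated counts for this comparison, over 14885 genes, 65.0% of 200 genes changed 2-fold were recovered, with 1 false call. Each gene was drawn independently there, without variation shared between genes, so the rate of false calls in the real libraries was not estimated. CPM values use the TMM factors. The leukocyte score is the mean centred log2 CPM (prior count 2) of the tested leukocyte markers. Alternatives were other factors and filters, DESeq2 1.42.0, limma 3.58.1 (voom, and log2 FPKM with pseudocounts of 1 and 0.1), the title number as a block, the leukocyte covariate, and left-out libraries.

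Named genes were Il6, the Dlg genes, 6 fixed partners, called partners, the 3 nearest tested genes on each side of Dlg2, the 5 genes most like it (mean of at least 1 CPM, no predicted or unnamed models) and abundant markers. Other genes were named after their values were seen: Prss23, Picalm, Hprt, the genes named in the run around Dlg3, the fibroblast markers, and the neuron and Schwann markers beside Dlg2. The members, lists and tests were chosen with earlier results of these data known. Promoter sequences came from RefSeq; of the 5 genes, all had at least 1 window. A few results for single genes are not reported here. Gene positions came from the deposited table. Tables and plots used matplotlib 3.10.9, numpy 2.4.6 and pandas 2.3.3 under Python 3.11.15.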

Additional observations from a re-analysis of the deposited data

Results flagged for a closer look

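Of 60 groups of 5 libraries (IL6 shRNA1 or control, 1 named gene each), 4 held a library whose gap to the nearest other exceeded 0.71 of the group's range; by chance about 1 in 20 groups does. IL6 shRNA1 library 1 was the high one for 3 genes that resemble Dlg2: Gucy1a1 at 21.5 CPM, against 4.67 to 9.09 in the other 4 libraries, Phyhipl at 52.2 CPM, against 6.81 to 17.6, and Unc5c at 15.7 CPM, against 2.57 to 4.99. Control library 3 was the low one for Grik2, at 6.49 CPM against 9.69 to 10.97 in the other control libraries.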

How the results depend on the processing

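The count of 1775 called genes became 3005 with DESeq2, 755 with the replicate block, 45 with the leukocyte covariate, 212 without the 3 farthest libraries and 381 at an adjusted p under 0.01; leaving out single libraries gave 864 to 2774. The 9 called partner genes became 20, 0, 2 and 4 with DESeq2, the covariate, those libraries omitted and the stricter threshold, and 5 to 15 with single libraries left out. Dlg2 moved to -0.55 and -1.78 on the log2(FPKM + 1) and log2(FPKM + 0.1) scales, whose pseudocounts are large beside its FPKM, and to -1.92 with the covariate. Dlg4 lost its call without the low-count filter (-0.28), with the replicate block (-0.30; adjusted p = 0.10), on the FPKM scales (-0.24 and -0.29), with the covariate (-0.20) and without the 3 libraries (-0.23); single omissions gave -0.34 to -0.25. Dlg5 ran from -0.46 to -0.27 and Dlg1 from -0.06 to 0.12 over single omissions. Dlg3 gave no value. Signs turned, always at values that were not called, for Il6 (-0.63), Llgl2 (-0.17) and Tmem126a (-0.01) with the covariate, for Dlgap4 (-0.01) and Llgl2 (-0.11) without the 3 libraries, and, in single omissions, for Dlgap4 (-0.02 to 0.06), Llgl2 (-0.02 to 0.11), Tmem126a (-0.01 to 0.18) and Crebzf (-0.09 to 0.02). Where no reason is given above, the cause was not tested. Whether the title numbers pair the samples was not settled. Same-numbered libraries of the 2 groups had correlations of their deviations from -0.28 to 0.27. Each was set against the best of the other control libraries, so this comparison cannot exclude pairing. IL6 shRNA1 libraries 1, 2, 4 and 5 each correlated better with a control library of another number, library 4 by a narrow margin (0.27 against 0.28). Library 3 was closest to its own number by a narrow margin (0.11 against 0.1). Of Il6 and the counted Dlg genes, Il6, at 9 counts in its lowest library, and Dlg2, at 25, were the most limited by depth. Some other named genes were lower than Dlg2. In IL6 shRNA1 library 3, Spon2 had 0.874 and Grik2 1.256 CPM, against 1.365 CPM for Dlg2. Syt1 averaged 0.432 CPM in the IL6 shRNA1 libraries, against 2.05 CPM for Dlg2.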
